A study of Mus musculus with 12 samples.

Results

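The Mir-103 family joins miR-103 and miR-107, the microRNAs (miRNAs) carried by introns of the pantothenate kinase genes. In the table of mature miRNA arms it was found by name, as every row whose first name is Mir-103. The rule gave 1 row of 513, the 3p arm of the paralogues Mir-103-P1, Mir-103-P2 and Mir-103-P3 counted together. Its level was followed in 12 hippocampal small RNA libraries from male wild-type C57BL/6J mice, an inbred strain. The exercised lineage comprised 6 mice of the F2 generation whose grandfathers (F0) exercised, reached through the male line. The sedentary lineage comprised 6 F2 mice whose grandfathers were sedentary. The question was whether the miRNA profile of grandsons differs with the grandfather's activity. The labels give neither the age of the mice nor any treatment of the F2 animals, and the description codes fall into 4 stems of 3 libraries each, with R31 and R41 on the exercised side and S11 and S41 on the sedentary side. What a stem stands for is not stated.

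A miRNA guides an Argonaute protein to messenger RNAs that pair with its seed, the bases near its 5′ end, and represses them. Guide and passenger arms are cut from opposite sides of 1 hairpin, and in this family the guide is the 3p arm. In mice, miR-103 and miR-107 are known for their effect on insulin sensitivity in liver and fat, and in human cancer cells for repressing Dicer, the enzyme that cuts miRNA hairpins. The host genes encode the enzymes of the first step of coenzyme A synthesis. In human brain, miR-107 has been studied in Alzheimer's disease, in relation to the protease gene BACE1.

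RefSeq lists 3 mouse genes with this guide, and their mature sequences are shown because they decide what a single row can tell apart. Capitals mark the seed, bases 2 to 8 from the 5′ end.

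mmu-miR-103-3p: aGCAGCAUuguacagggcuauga

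mmu-miR-107-3p: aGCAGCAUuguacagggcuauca

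The first is made by both Mir103-1 and Mir103-2 and the second by Mir107. Counted from 1 at the 5′ end, miR-103-3p and miR-107-3p share their first 21 of 23 bases and differ by the single substitution G22C. Of 1738 mature entries in the RefSeq table, 3 carry the seed GCAGCAU, namely these 3 genes. The deposited row names all 3 paralogues at once, so miR-103 and miR-107 reads cannot be told apart in these values, nor can the contributions of the 3 genes. The table does not pair the paralogue numbers with gene symbols. The rule takes all arms and gave the 3p row alone.

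The hairpins are shown because the genes differ outside the guide, which is in capitals.

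Mir103-1: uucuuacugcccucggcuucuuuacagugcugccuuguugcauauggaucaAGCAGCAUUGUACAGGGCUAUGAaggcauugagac

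Mir103-2: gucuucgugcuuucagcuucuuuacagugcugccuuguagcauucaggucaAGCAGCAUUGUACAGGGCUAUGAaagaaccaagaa

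Mir107: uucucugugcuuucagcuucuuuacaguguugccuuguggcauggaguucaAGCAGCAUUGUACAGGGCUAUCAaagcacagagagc

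The guide occupies bases 52 to 74 of each hairpin. Aligned end to end, Mir103-1 and Mir103-2 are identical at 69 of 86 positions (80.2%), Mir103-1 and Mir107 at 70 of 87 (80.5%), and Mir103-2 and Mir107 at 73 of 87 (83.9%). The 5p arms lie at bases 15 to 37. That of Mir103-1 differs from that of Mir103-2 by G1A, and that of Mir103-2 from that of Mir107 by C16U. On GRCm38 (mm10), Mir103-1 lies at chr11:35782396-35782481 on the plus strand within Pank3. Mir103-2 lies at chr2:131288052-131288137 on the plus strand within Pank2, and Mir107 at chr19:34820687-34820773 on the minus strand within Pank1. In the principal GENCODE transcript of each host, all of 7 exons, the hairpin sits in intron 5, on the same strand as the host and outside every exon.

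A related group of miRNAs carries the same 6 bases moved by 1 position, and it is shown because it contains the nearest neighbours of this seed. Here capitals mark AGCAGC.

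mmu-miR-103-3p: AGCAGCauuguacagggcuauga

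mmu-miR-15a-5p: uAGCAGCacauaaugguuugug

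mmu-miR-15b-5p: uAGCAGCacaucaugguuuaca

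mmu-miR-16-5p: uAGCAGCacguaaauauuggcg

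mmu-miR-195a-5p: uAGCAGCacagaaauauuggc

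mmu-miR-497a-5p: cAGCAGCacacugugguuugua

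mmu-miR-322-5p: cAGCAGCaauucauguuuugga

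The 6 bases start at base 1 in miR-103 and miR-107 and at base 2 in the others. With both positions counted, 15 of the 1738 mature entries (0.863%) hold them, 3 at base 1 and 12 at base 2. Bases 2 to 8 therefore read GCAGCAU in miR-103 and miR-107 and AGCAGCA in the other 6 miRNAs printed.

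The Mir-103 3p row was among the more abundant arms of the hippocampal profile. Its unit is the normalized count, for which an arm's reads are divided by a single size factor of the library. The row had a mean of 24939 normalized counts over the 12 libraries and ranked 45 of 513 rows. This was 101-fold above the median row mean of 247 normalized counts, with 91.2% of rows below it. Within single libraries its rank ran between 39 and 52. Libraries held 6862623 to 10219856 reads, and the row 16834 to 29118 reads, if the smallest step between values is 1 read. At that depth, counting error alone would give an SD of 0.00845 to 0.0111 on the log2 scale.

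**Figure D1:**
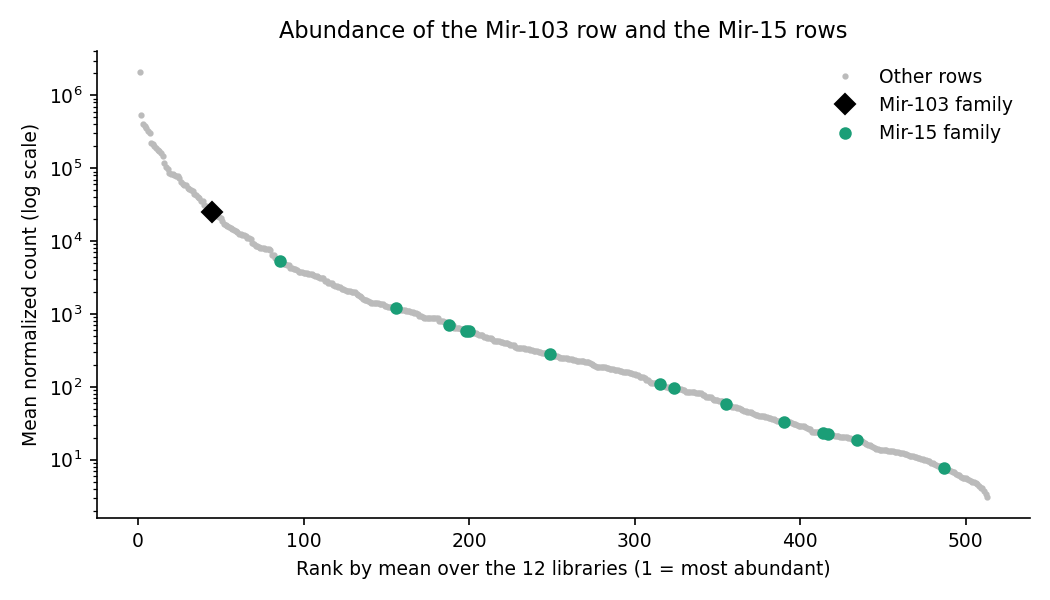
Mean normalized count over the 12 libraries (log scale) against rank for all 513 rows. The black diamond is the Mir-103 3p row at rank 45, and green circles are the 14 rows of the Mir-15 family, all of which lie below it.

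Marker miRNAs of cell types were looked at, which do not tell hippocampus from other brain regions. All 5 neuronal families sought (Mir-124, Mir-9, Mir-128, Mir-138 and Mir-132) had rows and together held 29.4% to 34.6% of the counts of a library. On average most of this sum was the Mir-9 5p row, the most abundant of all, with a mean of 2093850 normalized counts. The microglia and leukocyte families held 0.0199% to 0.0267%, and the erythroid families 0.00732% to 0.0149%. Choroid plexus markers (Mir-1298 and Mir-204, with no row under the name Mir-449) held 0.353% to 2.31%, and the endothelial and mural families 4.01% to 8.92%. Rows were sought by name only, so Mir-449 may be counted under another name. In whole tissue, fewer cells of a type and less RNA per cell cannot be told apart.

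A pair of libraries stood apart in the Mir-103 row, and 1 of them also stood apart over the whole profile. In exercised replicate 1 the median absolute deviation of the 474 tested rows from their 12-library median was 0.38 log2, against 0.11 to 0.22 in the other 11 libraries. That library was the lowest of the 12, ties included, for 25.1% of rows and the highest for 19.8%. In sedentary replicate 1 the same deviation was 0.18 log2, within the range of the others. Results on the Mir-103 3p row are therefore given with and without these libraries.

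In the exercised lineage the Mir-103 3p row had 15576, 23233, 23562, 27567, 26150 and 25823 normalized counts in replicates 1 to 6. In the sedentary lineage it had 35255, 23144, 25387, 23845, 23590 and 26131 normalized counts. The lowest and the highest of the 12 values were the replicate 1 libraries of the exercised and the sedentary lineage, and the other 10 lay between 23144 and 27567. The groups overlapped, with 5 of 6 exercised-lineage values inside the range of the sedentary lineage and 5 of 6 sedentary-lineage values inside the range of the exercised lineage.

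The family did not differ between the lineages beyond the spread of the libraries. The row averaged 23652 ± 4282 normalized counts in exercised-lineage mice and 26226 ± 4569 in sedentary-lineage mice (SD, n = 6 each), and the medians were 24692 in exercised-lineage mice and 24616 in sedentary-lineage mice. The log2 difference, exercised minus sedentary, was -0.16 (SE 0.14, 95% confidence interval -0.47 to 0.15). This is 0.897-fold on the linear scale, with an interval of 0.723 to 1.11. The limma p adjusted over all 474 tested rows was 0.669 (unadjusted p = 0.297), and the exact two-sided permutation p over 924 assignments was 0.435. Of the exercised-lineage values, 3 of 6 lay below the sedentary median, so the means and the medians did not point the same way. A p above the threshold does not show that the lineages are alike.

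Across the table the comparison called 0 of 474 rows at an adjusted p below 0.05 (0%), and 34 rows (7.17%) at an unadjusted p below 0.05. The Mir-103 3p row was in neither group, and 208 rows had a smaller p. Over all tested rows the median log2 difference was -0.0013, with 236 rows above 0 and 238 below. When libraries were instead scaled to equal totals, the split was 308 above and 166 below, the median of all rows moved to 0.085, and the Mir-103 3p row had a log2 difference of -0.070.

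**Figure D2:**
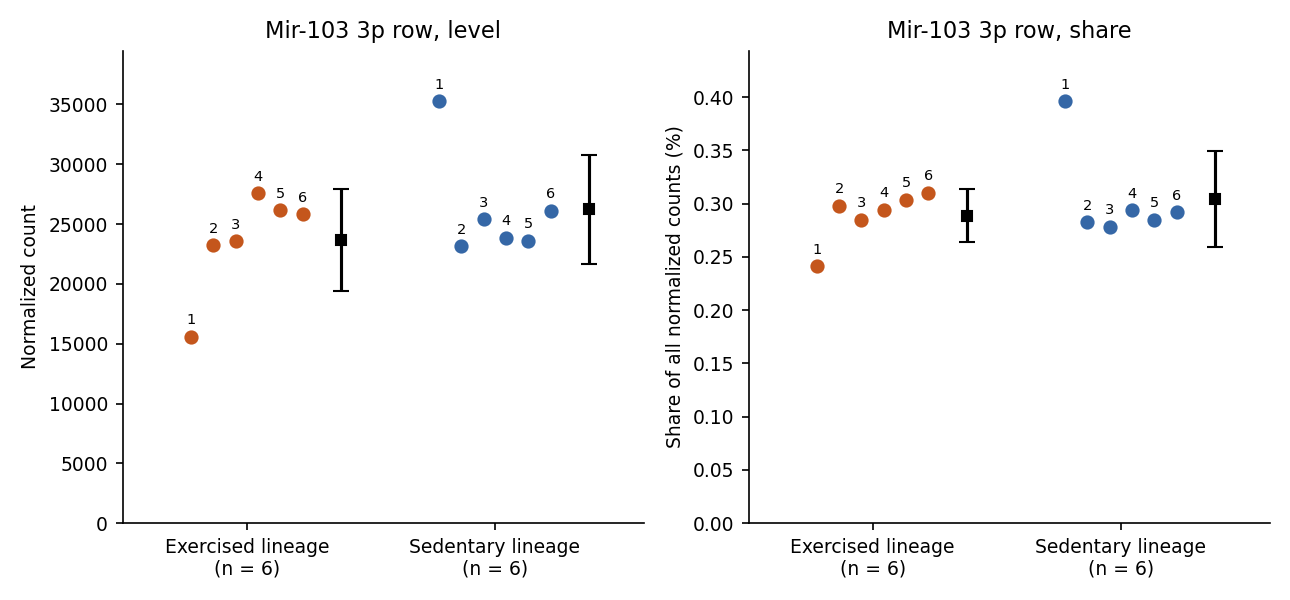
Normalized count (left) and share of all normalized counts in percent (right) of the Mir-103 3p row, with 1 point per library labelled by replicate number, and the mean ± SD of each lineage as a black square with bars (n = 6 each). Exercised replicate 1 is the lowest point and sedentary replicate 1 the highest in both panels, and the other 10 libraries lie close together.

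The direction of the small difference rested on these libraries. Without exercised replicate 1 the log2 difference was -0.041 (95% confidence interval -0.28 to 0.19), and without sedentary replicate 1 it was -0.068 (-0.36 to 0.22). Without both it was 0.048 (-0.11 to 0.21, limma adjusted p = 0.854). The sign was thus reversed, and the interval again crossed 0. These libraries hold the lowest exercised-lineage and the highest sedentary-lineage value of this row. Leaving both out could only raise the difference and narrow the spread, and the choice was made after seeing the data. The remaining 5 libraries of each lineage averaged 25267 ± 1832 normalized counts in exercised-lineage mice and 24420 ± 1276 in sedentary-lineage mice (SD, n = 5 each). The SD on the log2 scale was 0.30 in exercised-lineage mice and 0.23 in sedentary-lineage mice. Without replicate 1 it was 0.10 in exercised-lineage mice and 0.075 in sedentary-lineage mice.

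As a share of all normalized counts, which does not depend on the size factor, the row held 0.289% ± 0.0248 in exercised-lineage mice and 0.304% ± 0.0452 in sedentary-lineage mice (SD, n = 6 each). Exercised replicate 1 stood at 0.241% (95% Wilson interval 0.238% to 0.245%) and sedentary replicate 1 at 0.396% (0.391% to 0.400%). These intervals cover counting error only, since copies made by PCR were not told apart from separate molecules. The other libraries ran between 0.285% and 0.310% in exercised-lineage mice and between 0.278% and 0.294% in sedentary-lineage mice. Both libraries that stood apart by level also did so by share. In exercised replicate 1 the departure was smaller in proportion by share, at 0.241% with the next value of its lineage at 0.285%. By level it was 15576 normalized counts with the next at 23233, and that library had the lowest normalized total, at 6458450. Without both libraries the share averaged 0.298% ± 0.00959 in exercised-lineage mice and 0.286% ± 0.00650 in sedentary-lineage mice (SD, n = 5 each). The order of the lineages was again turned round.

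By code stem, the row averaged 20790 ± 4519 normalized counts in R31 and 26513 ± 927 in R41, both of the exercised lineage. It averaged 27929 ± 6443 in S11 and 24522 ± 1399 in S41, both of the sedentary lineage (SD, n = 3 each). The order of the 4 means was R31, S41, R41 and S11 from low to high. R31 and S11, which hold the libraries that stood apart, had the wide spreads, and the range of each stem overlapped that of at least 1 stem of the other lineage. Every stem lies within a single lineage, and the means of R31 and R41, which share a lineage, lay further apart than the means of the lineages. With the stem as a random block in limma, the log2 difference was again -0.16 (adjusted p = 0.664). The correlation within stems used there, estimated over all rows, was -0.0041. That fit was therefore close to the fit without a block and could not account for stems in this row. The log2 difference was 0.031 without the R31 libraries and -0.34 without the R41 libraries (limma adjusted p = 0.943 and 0.545).

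Within the libraries that stood apart, other rows departed further than the Mir-103 3p row. In exercised replicate 1 the row lay 0.66 log2 below its 12-library median, and 123 of 474 rows (25.9%) deviated further in either direction. In sedentary replicate 1 it lay 0.52 log2 above its median, and 86 rows (18.1%) deviated further. In both libraries the row lay outside the 25th to 75th percentile of all tested rows and inside the 5th to 95th. These shares include rows of low count, which vary more by counting alone, and were not taken over rows of like level. Sedentary replicate 1 had 2.26 times the normalized count of exercised replicate 1. Over both lineages the within-lineage SD of the row was 0.27 log2, against a median of 0.20 log2 for the 50 rows nearest to it in level, of which 19 had a larger SD.

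Several marker lists were at an end of their range in the same libraries. Sums of normalized counts also move with the normalized total of the library. That total was lowest in exercised replicate 1, at 6458450, against 7793640 to 9370390 in the others. A low sum in that library therefore need not be a low share of its counts. By share, the neuronal list was also the lowest of the 12 there, at 29.4%. The microglia and leukocyte list and the muscle list were not the lowest there by share. The summed neuronal markers were the lowest of the 12 in exercised replicate 1, at 1900550 normalized counts, and below only 2 other libraries in sedentary replicate 1, at 3071310. They ranged from 1900550 to 3239400 in exercised-lineage mice and from 2436590 to 3081350 in sedentary-lineage mice. The oligodendrocyte families Mir-219 and Mir-338 were lowest in sedentary replicate 1, at 9949 normalized counts, with a range of 14078 to 19265 in exercised-lineage mice and 9949 to 20573 in sedentary-lineage mice. The microglia and leukocyte list and the muscle list were lowest in exercised replicate 1, at 1672 and 3096 normalized counts, with 1783 to 2225 and 3513 to 5790 in the other exercised-lineage mice. The choroid plexus markers were high in both libraries, at 148960 normalized counts in exercised replicate 1 (above 8 libraries) and 162648 in sedentary replicate 1 (the highest). They ranged from 29846 to 161274 in exercised-lineage mice and from 28667 to 162648 in sedentary-lineage mice. By share of counts, exercised replicate 1 was instead the highest of the 12 for these markers, at 2.31%. No neuronal, oligodendrocyte, choroid plexus, microglia or muscle row was at 0 in any library. The part of these markers in the level of the Mir-103 3p row was not tested.

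**Figure D3:**
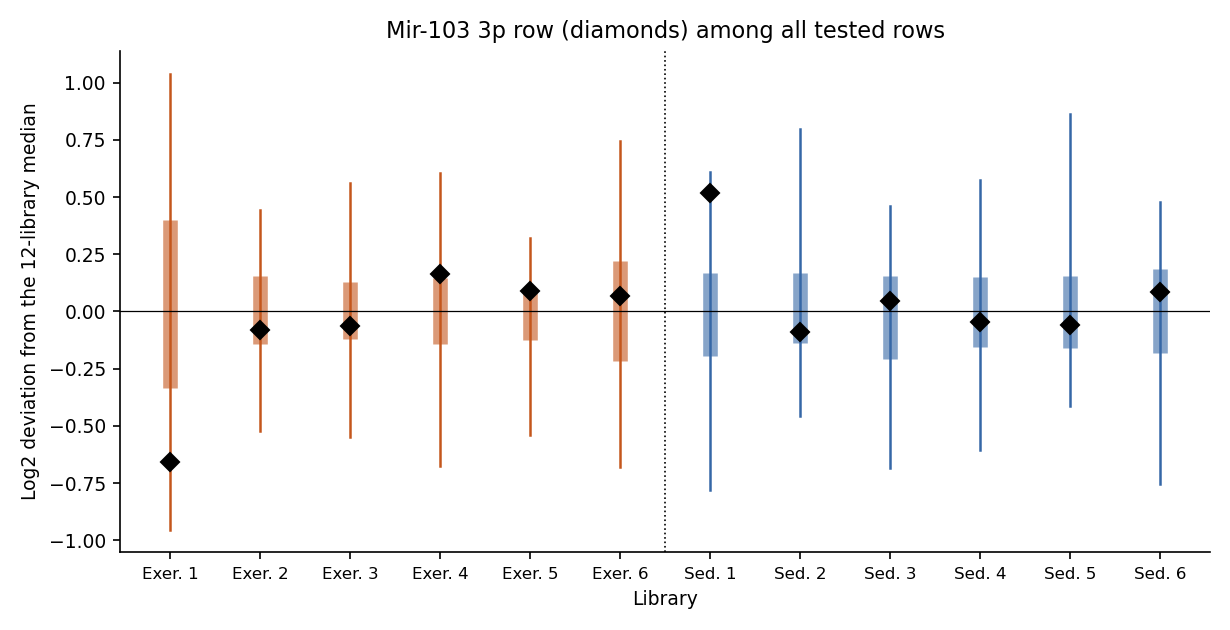
Log2 deviation of each tested row from its own median over the 12 libraries, shown per library with the exercised lineage on the left (orange) and the sedentary lineage on the right (blue). Thick bars span the 25th to 75th and thin lines the 5th to 95th percentile of the 474 rows, and black diamonds are the Mir-103 3p row, which lies at -0.66 in exercised replicate 1 and 0.52 in sedentary replicate 1.

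The rows most like Mir-103 were sought by the Pearson correlation of log2 values over the 12 libraries, as a description without a test, since the rows share library and size factor. The 5 highest of 473 belonged to Mir-154-P4_5p (r = 0.91), Mir-7-P3_5p (0.91), Mir-330 3p (0.89), Let-7-P11_5p (0.89) and the Let-7 5p arm shared by Let-7-P10 and Let-7-P5 (0.88). Mir-154-P4 is an arm of the imprinted Dlk1-Dio3 cluster on chromosome 12, Mir-7 is a neuronal and endocrine miRNA, and the let-7 family marks differentiated cells. The median over the 473 rows was -0.05, and 19 rows exceeded 0.8.

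This likeness fell by more than 0.1 in r for 4 of the 5 rows without the libraries that stood apart. Without the replicate 1 library of each lineage, r was 0.88 for Mir-154-P4_5p, 0.44 for Mir-7-P3_5p, 0.64 for Mir-330 3p, 0.38 for Let-7-P11_5p and -0.09 for the shared Let-7 arm, each over 10 libraries. Of the 5 rows, 1 was then still among the 5 highest. With only exercised replicate 1 left out, r was 0.75 for Mir-154-P4_5p and Mir-7-P3_5p, 0.73 for Mir-330 3p and 0.69 for both Let-7 rows. With only sedentary replicate 1 left out, r ran from 0.82 for the shared Let-7 arm to 0.97 for Mir-154-P4_5p. With all 12 libraries scaled to equal totals, r fell in every one of the 5 rows, to 0.73 for Mir-154-P4_5p and Mir-7-P3_5p, 0.66 for Mir-330 3p, 0.69 for Let-7-P11_5p and 0.70 for the shared Let-7 arm. Mir-154-P4_5p had 677 normalized counts in exercised replicate 1 and 1461 in sedentary replicate 1, with 1107 to 1512 in the other 10 libraries. Mir-7-P3_5p had 5713 in exercised replicate 1 and 26765 in sedentary replicate 1, with 11848 to 21382 in the other 10. Mir-154-P4_5p was thus low in exercised replicate 1 but inside the range of the others in sedentary replicate 1, while Mir-7-P3_5p lay outside that range in both.

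**Figure D4:**
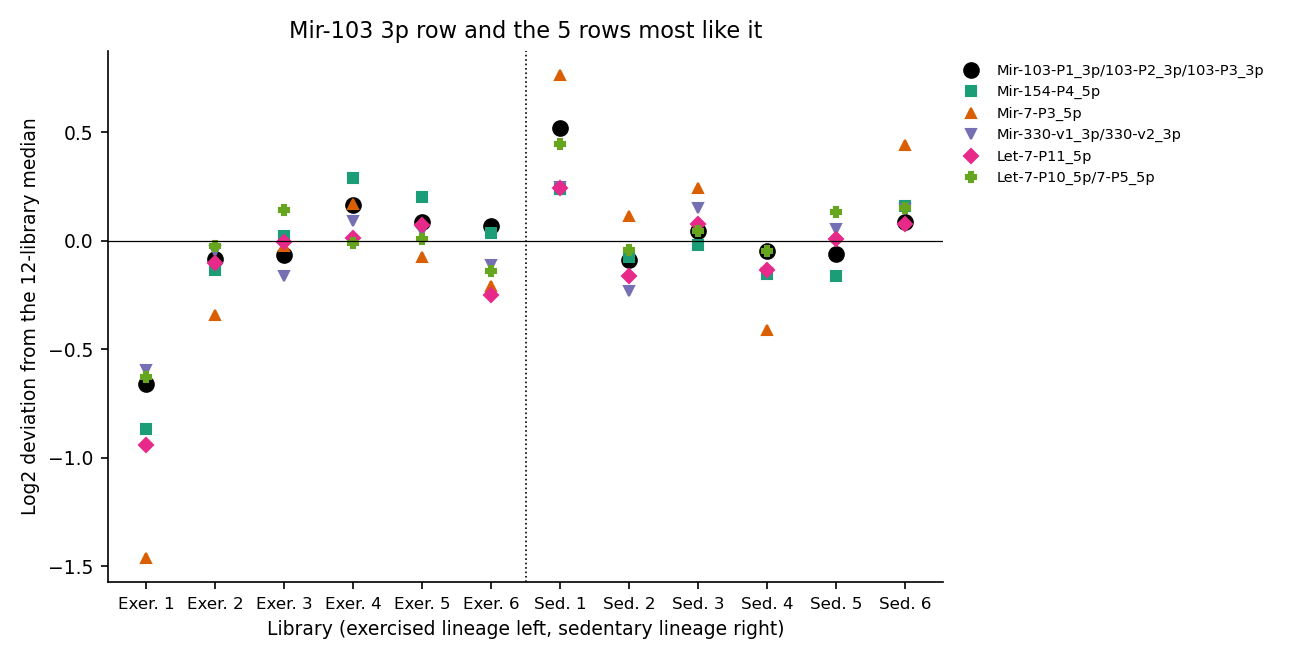
Log2 deviation from the 12-library median of the Mir-103 3p row (black circles) and of the 5 rows with the highest Pearson correlation to it (coloured symbols), with the exercised lineage left and the sedentary lineage right of the dotted line. All 6 rows are below 0 in exercised replicate 1 and above 0 in sedentary replicate 1, and elsewhere their points scatter around 0. The 5 rows were picked by correlation over these same libraries, so this agreement follows in part from the choice.

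The Mir-15 family, which shares AGCAGC with the Mir-103 family and is known for restraining the cell cycle, was less abundant in every one of its rows. It had 14 rows, of which 13 were tested. The most abundant was the 5p arm shared by Mir-15-P2a and Mir-15-P2b, with 5681 ± 1042 normalized counts in exercised-lineage mice and 4820 ± 654 in sedentary-lineage mice (SD, n = 6 each), 4.75-fold less than the Mir-103 3p row over all libraries. Its log2 difference was 0.23 (SE 0.13, 95% confidence interval -0.05 to 0.50, limma adjusted p = 0.532). Mir-15-P2c_5p had 1232 ± 188 in exercised-lineage mice and 1156 ± 110 in sedentary-lineage mice, a log2 difference of 0.08 (-0.16 to 0.32).

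The passenger arms Mir-15-P2a_3p* and Mir-15-P2c_3p*, next in abundance, had log2 differences of 0.15 for the first and -0.23 for the second. Without both replicate 1 libraries, the log2 differences of the 4 rows were 0.26 for the shared P2a and P2b arm, 0.18 for Mir-15-P2c_5p, 0.069 for Mir-15-P2a_3p* and -0.20 for Mir-15-P2c_3p*. Of the 13 tested Mir-15 rows 0 were called, 11 had a log2 difference above 0 and 2 below, and their median was 0.11, beside -0.0013 over all 474 rows. Nothing particular to the family is read from these counts. The Mir-103 3p row was set over the sum of the 7 Mir-15 guide rows, those whose names carry no star. These include the 3p row of Mir-15-P1d, whose 5p row carries the star. The ratio was 2.97 ± 0.472 in exercised-lineage mice and 3.80 ± 0.898 in sedentary-lineage mice (SD, n = 6 each), described without a test. The ratio ran from 2.37 to 3.49 in exercised-lineage mice and from 2.69 to 5.34 in sedentary-lineage mice. The ranges overlapped, and the ends at 2.37 and 5.34 were again exercised replicate 1 and sedentary replicate 1. Without these libraries the ratio was 3.09 ± 0.414 in exercised-lineage mice and 3.50 ± 0.548 in sedentary-lineage mice (SD, n = 5 each). The Mir-15 row shared by P2a and P2b stood at 4455 normalized counts in exercised replicate 1 and 4257 in sedentary replicate 1, with 4443 to 7344 in the other 10.

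**Figure D5:**
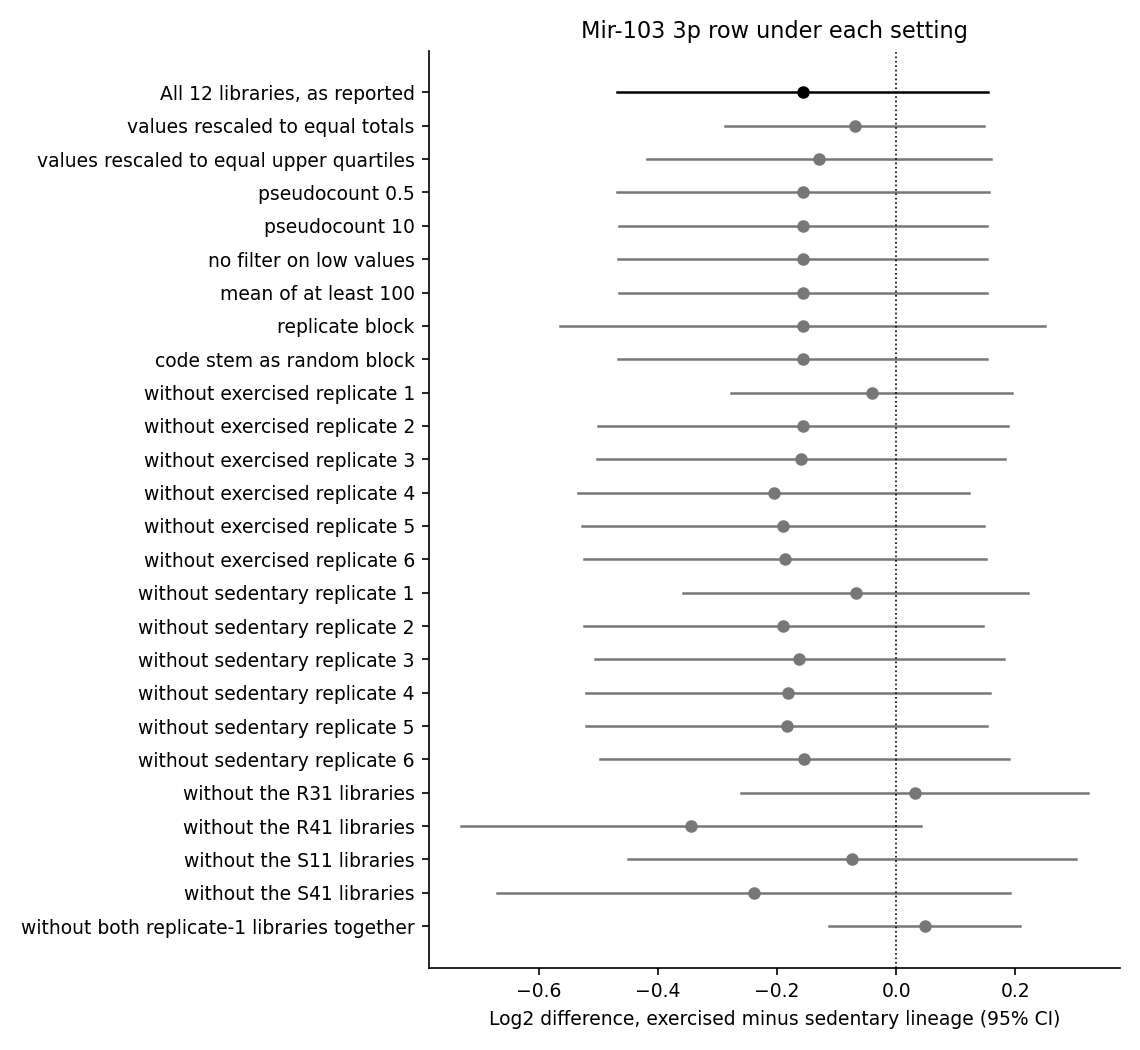
Log2 difference of the Mir-103 3p row, exercised minus sedentary lineage, with its 95% confidence interval, for the reported comparison (black, at the top) and each other setting (grey). All intervals cross 0, and the points lie between -0.34 without the R41 libraries and 0.048 without both replicate 1 libraries.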

How the data were processed

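Small RNA libraries of 12 hippocampi, 6 per lineage, were grouped by title. An miRNeasy kit for extraction and an NEBNext small RNA kit for the libraries are named, per the labels' protocols. Bowtie 1.3.0, mm10 and DESeq2 were used, per the submitters' processing notes. For trimming, mismatches and reads that match several loci the settings were not given in the sources used here, nor was how miR-103 and miR-107 reads came to share a row. The deposited values are a signal, the reads per arm that the authors divided by 1 size factor per library. All values were whole multiples, within 0.01, of the smallest step of their library. No 2 libraries were identical, in any of 66 pairs. The labels number separate mice, so p-values measure the spread between mice. The labels used here do not give how many grandfathers the 6 mice of a lineage descend from. Mice that share a grandfather are not independent replicates of his activity, and the p-values do not take this into account.

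Values were tested as log2(value + 1), which understates differences of low rows, with limma 3.58.1 in R 4.3.3 (empirical Bayes with a mean-variance trend, Benjamini-Hochberg adjustment over all rows) on the 474 rows with a mean of at least 10. The fit was tested on simulated data. The exact permutation test used numpy 2.4.6, and the Wilson intervals used scipy 1.17.1. The text names every Mir-103 row, the 4 most abundant Mir-15 rows and the 5 rows with the highest correlation to Mir-103. The members and lists were chosen with earlier results of these data known. Sequences are from RefSeq (GRCm38.p6), which matched 3 of 3 genes, and introns from the GENCODE annotation of mm10. Alternatives covered scaling, pseudocount, filter, blocks and left-out libraries.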

Additional observations from a re-analysis of the deposited data

Results flagged for a closer look

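Values were looked at for a single library far from the others of its lineage, in 11 quantities and both lineages. This gave 6 of 22 group values, where chance flags about 1 in 20. The Mir-103 3p row was low in exercised replicate 1, at 15576 normalized counts with the next value at 23233, and high in sedentary replicate 1, at 35255 with the next at 26131. Its share of all counts stood apart in the same libraries, at 0.241% in exercised replicate 1 and 0.396% in sedentary replicate 1. Mir-15-P2a_3p* was low in sedentary replicate 1, at 497 normalized counts with the next value at 670. The 5p arm shared by Let-7-P10 and Let-7-P5 was high in sedentary replicate 1, at 292176 normalized counts with the next value at 238028. The quantities are not independent, since the let-7 arm was named for its likeness to the Mir-103 3p row and the share is made from the level.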

How the results depend on the processing

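The log2 difference of the Mir-103 3p row stayed below 0 and uncalled under every setting run except 2. It was 0.031 without the R31 libraries and 0.048 without both replicate 1 libraries, a setting chosen after seeing the data, as was the permutation test. With 1 library left out it ran from -0.21 (without exercised replicate 4) to -0.041 (without exercised replicate 1). The count of called rows was 0 throughout. Rows at an unadjusted p below 0.05 numbered 34, and ran from 16 without the S11 libraries or with the replicate block to 48 without sedentary replicate 4. With the mouse number as a replicate block the Mir-103 3p row kept -0.16 (limma adjusted p = 0.796). After each row's lineage mean was subtracted, same-numbered libraries correlated at -0.17 to 0.15, and 2 of 12 libraries correlated best with their own number. These values gave no sign of a pairing by number, though they cannot exclude one. With the code stem as a random block the limma adjusted p was 0.664, with a correlation within stems of -0.0041 over all rows. The share difference of -0.0157 percentage points ran from -0.0210 to 0.00255 with 1 library left out and was 0.0121 without both replicate 1 libraries. The log2 differences of the 4 Mir-15 rows kept their sign in all settings, but their size did not hold. With 1 library left out, that of the shared P2a and P2b arm ran from 0.15 (exercised replicate 6) to 0.30 (sedentary replicate 2), and that of Mir-15-P2c_5p from 0.036 (exercised replicate 3, likewise exercised replicate 6) to 0.15 (exercised replicate 1), with 0.054 without sedentary replicate 3. That of Mir-15-P2a_3p* ran from 0.066 (sedentary replicate 1) to 0.19 (sedentary replicate 2), and that of Mir-15-P2c_3p* from -0.30 (exercised replicate 5) to -0.15 (sedentary replicate 6). Mir-15-P2c_5p had 0.0022 without the R41 libraries. The planned ratios between guide rows, ratios of guide to passenger arm and correlation of guide rows could not be run, since the family has a single row.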
